A study of Homo sapiens with 36 samples.

Results

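Orosomucoid, also called alpha-1-acid glycoprotein, is encoded by the paralogous genes ORM1 and ORM2, which were followed here in prostate cancer cells exposed to androgen. The HT-12 array carried 1 probe annotated to each gene (ILMN_1696584 for ORM1 and ILMN_1731785 for ORM2), so the 2 members of 20046 measured genes were read from 1 probe each. Both genes were chosen by their measured levels over line, vector and arm on these arrays, so their levels and differences are given as a description, without p-values. The values are log2 bead intensities after quantile normalization, on which 1 unit is a doubling.

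The cells were LNCaP, a human prostate cancer line that depends on androgen, and c42b, its castration-resistant derivative. Per the labels, each line carried a non-targeting hairpin (NT), a hairpin against GABPA (shGA), the empty pLVX vector (pLVX_EV) or pLVX with GABPA (pLVX_GABPa). The study's methods name the pSicoR and pLVX vectors the other way round, for overexpression and knockdown in turn, and the labels were followed here. GABPA encodes the part of the ETS factor GABP that binds DNA. All cells spent 48 h in charcoal-stripped serum and then received 1 nM R1881, a synthetic androgen that is hardly metabolised, or the same volume of ethanol (vehicle). The 16 groups had 2 samples each, and 4 of the 32 samples had been run on a repeat array that was averaged with the first. Control cells are the NT and pLVX_EV cells of a line, which gives 4 samples for each line and arm. The whole design rests on 1 line and its derivative, and the duration of the R1881 exposure was not given in the sources used here.

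Orosomucoid is an abundant glycoprotein of blood plasma with a lipocalin fold, a small barrel that holds hydrophobic ligands, and it carries many basic drugs and steroids. The liver is its main source. It is a positive acute-phase protein: in hepatocytes its genes respond to interleukin-1, interleukin-6 and glucocorticoids, with C/EBP factors acting at the ORM1 promoter. The glucocorticoid receptor recognises the half-site AGAACA.

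In RefSeq annotation of GRCh38.p14, ORM1 lies on chromosome 9 from 114323098 to 114326479 and ORM2 from 114329869 to 114333251, both in the same orientation and 3389 bp apart. The 250 bases before the annotated start of ORM1, at chr9:114322848-114323097 on the plus strand, are shown because C/EBP factors, which act there in hepatocytes, are among the genes read beside ORM1. Capitals mark matches to the C/EBP consensus, the ETS core and the TATA element.
ORM1 promoter: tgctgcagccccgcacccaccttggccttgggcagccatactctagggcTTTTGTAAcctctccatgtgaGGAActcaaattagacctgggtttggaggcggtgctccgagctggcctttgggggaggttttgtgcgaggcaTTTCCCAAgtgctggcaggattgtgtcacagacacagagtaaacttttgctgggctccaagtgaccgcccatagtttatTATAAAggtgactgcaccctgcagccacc
Both strands were searched in this window. The C/EBP consensus TTNNGNAA (N for any base) matched 2 times, at bases 50 to 57 on the plus strand and 143 to 150 on the minus strand, counted from the 5′ end of the window, and 33.2% of 35116 RefSeq promoters of the same length held such a match. The ETS core GGAA matched 2 times, at bases 71 to 74 and, inside the second C/EBP match, at bases 144 to 147 on the minus strand, and 92.7% of promoters held it. The element TATAAA stood 29 to 24 bases before the start (10.7% of promoters). The glucocorticoid receptor half-site AGAACA did not occur in these bases and was present in 12.4% of promoters. These matches describe the letters only. Of ORM1 and ORM2, 1 of 2 matched an entry of the RefSeq promoter table.

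Probes for 457 olfactory receptor transcripts, which are seldom expressed outside the nose, gave a background level of 7.80 log2 (the 95th percentile of their means), and 48.2% of all genes had a mean above it. All 6 measured markers of prostate luminal cells (KRT8, KRT18, KLK3, FOLH1, TMPRSS2 and HOXB13) were above this level. Genes other than ORM1 and ORM2 were tested with limma, a linear model fitted to every probe, and called at an adjusted p under 0.05. In cells labelled GABPA overexpression, the GABPA probe did not differ detectably from empty-vector cells (difference -0.05 ± 0.11 log2 in LNCaP and 0.03 ± 0.11 in c42b, SE, limma adjusted p = 0.956 and 0.978), so these groups are named by their label. SE is the standard error of the fitted model. In c42b knockdown cells the GABPA probe fell by 0.46 log2 (limma adjusted p = 0.0215). In LNCaP knockdown cells it differed by -0.38 log2 (adjusted p = 0.101). The probe read near background, with means in labelled overexpression cells of 8.01 log2 in LNCaP and 8.18 in c42b. Its knockdown means lay below background in both lines. The paper reports that western blotting and PCR showed both the overexpression and the knockdown, and describes the overexpression as doxycycline-inducible. This probe alone therefore cannot decide whether GABPA was overexpressed in these cells.

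Both ORM probes were bright in 1 of the 4 combinations of line and arm, LNCaP cells with R1881, and at or near background in the others. In the 8 LNCaP samples with R1881, ORM1 ran from 8.92 to 9.82 log2 with a median of 9.42, all above background. In the 8 LNCaP vehicle samples it ran from 6.72 to 7.45 with a median of 7.17, all below background. The 2 sets did not overlap, which held in this direction for 1.17% of all genes. On the linear scale the mean ORM1 intensity was 694 ± 146 (SD, n = 8) with R1881 and 144 ± 23.1 with vehicle. In such bulk samples, fewer expressing cells and less RNA per cell cannot be told apart.

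ORM2 had the same order of levels. It ran from 8.83 to 9.48 log2 with a median of 9.13 in the 8 LNCaP samples with R1881, and from 6.97 to 7.56 with a median of 7.35 in the 8 vehicle samples. Again every R1881 sample was above background, no vehicle sample was, and the sets did not overlap. The mean linear intensity was 563 ± 94.0 (SD, n = 8) with R1881 and 160 ± 22.4 with vehicle.

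**Figure D1:**
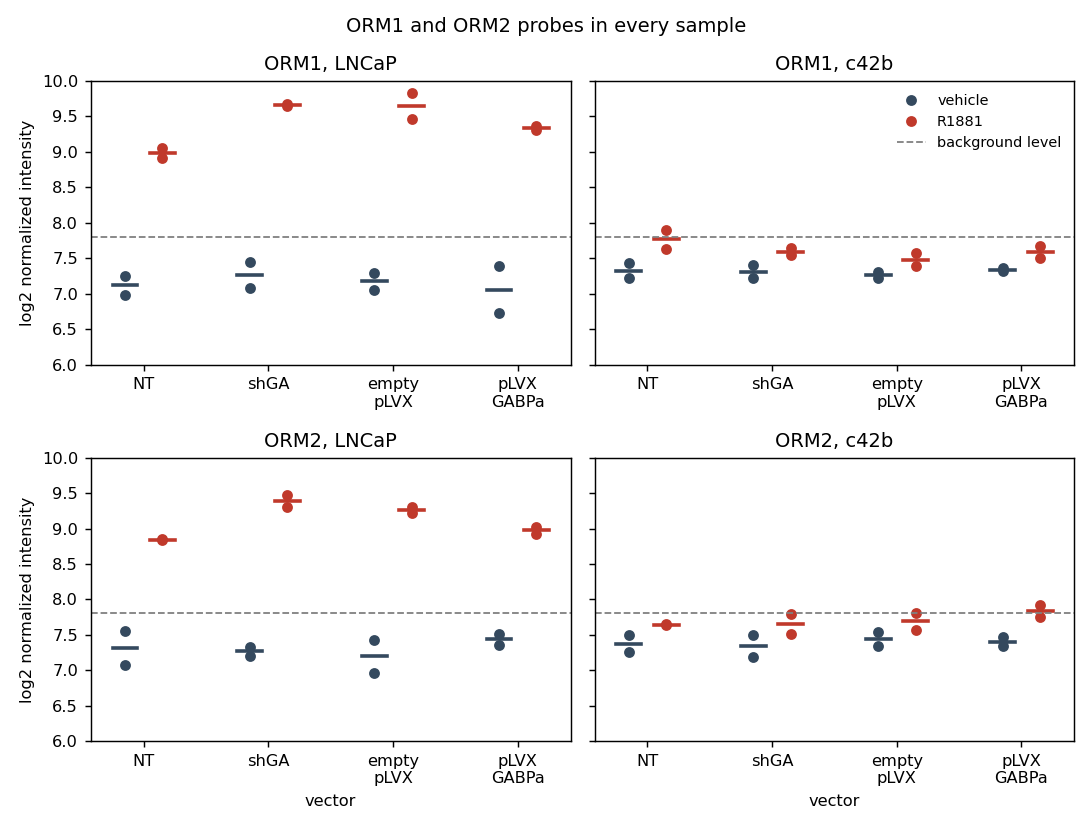
Log2 normalized intensity of the ORM1 and ORM2 probes (y axis) in every sample by vector (x axis), for LNCaP (left) and c42b (right); red points are R1881 samples, dark points vehicle samples, short bars group means of 2 and the dashed line the background level of 7.80. All 8 LNCaP samples with R1881 stand above the line in both rows, and the c42b samples lie between 7.20 and 7.92.

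In c42b cells both probes stayed close to background in either arm. ORM1 ran from 7.39 to 7.90 log2 with R1881 (median 7.60, 1 of 8 above background) and from 7.22 to 7.43 with vehicle (median 7.31, 0 of 8). ORM2 ran from 7.52 to 7.92 with R1881 (median 7.70, 2 of 8 above background) and from 7.20 to 7.54 with vehicle (median 7.41, 0 of 8). Over all 8 samples of an arm the R1881 and vehicle ranges overlapped for both probes. Within each of the 4 vectors, however, both R1881 samples were above both vehicle samples for ORM1 and for ORM2, a pattern that 1.49% of all genes had in c42b.

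The vehicle arms of the lines were alike at this limit of detection. The c42b mean differed from the LNCaP mean by 0.16 ± 0.08 log2 for ORM1 and by 0.09 ± 0.08 for ORM2 (SE, n = 8 and 8; 0.07 to 0.24 and 0.03 to 0.15 with 1 sample left out), the ranges overlapped, and all 32 readings lay below background. With R1881, c42b minus LNCaP was -1.80 ± 0.08 log2 for ORM1 and -1.41 ± 0.08 for ORM2, and no c42b sample reached the lowest LNCaP sample. Groups without overlap in this direction occurred for 4.36% of all genes. A level near background is an upper bound on the transcript, so neither gene was shown to be silent in vehicle or in c42b cells.

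In LNCaP control cells, ORM1 averaged 9.32 log2 with R1881 and 7.15 with vehicle, a difference of 2.17 ± 0.12 log2 (SE, n = 4 and 4). ORM2 averaged 9.05 and 7.26, a difference of 1.80 ± 0.11. Since the vehicle samples were below background, the change was bounded by reading them at the background level, which gave at least 2.85-fold for ORM1 and at least 2.38-fold for ORM2. The groups did not overlap for either gene, as for 3.01% of all genes. By the size of the difference ORM1 stood 7th highest and ORM2 12th highest of 20046 genes, whose median was -0.01.

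The genes above ORM1 in that order were SGK1 (2.81 log2), a kinase first known as induced by glucocorticoids, PMEPA1 (2.80), FKBP5 (2.66), TMPRSS2 (2.62), SLC45A3 (2.26) and RHOU (2.22). These 6 genes and ORM1 were all that reached 2 log2 or more. In c42b control cells the difference was 0.33 ± 0.12 log2 for ORM1 (227th highest), whose groups overlapped, and 0.26 ± 0.11 for ORM2 (455th highest), whose groups did not (2.07% of all genes). No fold is given for c42b, where both arms averaged below background.

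The response in c42b minus that in LNCaP control cells was -1.84 ± 0.17 log2 for ORM1 and -1.54 ± 0.16 for ORM2. These were the lowest and the second lowest of the 20046 response differences, whose median was 0.01. Of the 4 means behind each value only that of LNCaP with R1881 was above background, so size and rank describe readings near the limit of detection. Next came TRIM51 (-1.41), PMEPA1 (-1.11), TMPRSS2 (-1.11) and TRIM49D1 (-1.07). The TRIM genes were named after their values were seen, and belong to a family of near-identical copies whose probes may share targets.

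TRIM51, a member of the tripartite motif family, had a like profile at a higher level: 9.40 to 11.0 log2 in LNCaP cells with R1881, 8.15 to 8.74 with vehicle, and 7.31 to 8.12 in c42b. The androgen-induced genes FKBP5 and KLK3 rose in both lines. FKBP5, a co-chaperone of steroid receptors, rose by 2.66 ± 0.08 log2 in LNCaP and by 2.08 ± 0.08 in c42b control cells (limma adjusted p = 1.5e-19 and 5.67e-17). KLK3, which encodes prostate-specific antigen, rose by 1.64 ± 0.09 and by 0.90 ± 0.09 (adjusted p = 1.57e-13 and 9.1e-08). In c42b the FKBP5 range with R1881 (11.7 to 12.6 log2) was far above that with vehicle (9.67 to 9.97), whereas the ORM1 ranges of the same samples met.

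**Figure D2:**
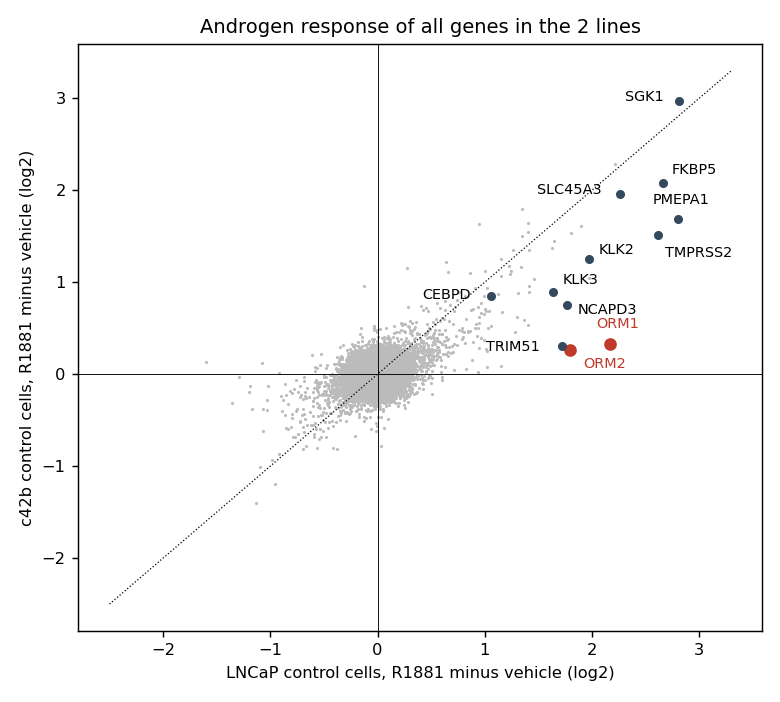
Androgen response of each of 20046 genes (grey points), as R1881 minus vehicle on the log2 scale, in LNCaP control cells (x axis) and c42b control cells (y axis), with equal responses along the dotted line. ORM1 (2.17 and 0.33) and ORM2 (1.80 and 0.26) lie far to the right of that line, below FKBP5 (2.66 and 2.08) and SGK1 (2.81 and 2.97).

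Of 9 measured genes of an androgen-response list (KLK3, KLK2, FKBP5, TMPRSS2, NDRG1, SLC45A3, PMEPA1, STEAP4 and ACP3), 7 rose with R1881 in LNCaP control cells, against 1.65% of all genes that were called higher there. In c42b 7 rose and ACP3, the prostatic acid phosphatase, fell by 0.48 log2 (0.943% and 0.609% of all genes were called higher and lower). The median difference of the list was 1.98 in LNCaP and 1.51 in c42b, and of all genes -0.01 and -0.004. The test of the response difference between lines, added after the data had been seen, called 5 of the 9 lower in c42b: TMPRSS2, PMEPA1, KLK3 (-0.74 ± 0.13, adjusted p = 0.00338), KLK2 and FKBP5 (-0.58 ± 0.12, adjusted p = 0.0185), against 0.165% of all genes. The FKBP5 call was lost without any 1 of 8 of the 32 samples in turn, with adjusted p up to 0.0731 (without LNCaP vehicle NT replicate 2), and under median centring of the arrays (adjusted p = 0.115).

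Among LNCaP cells with R1881 the ORM level also differed between vectors. For ORM1 the pairs of samples read 9.65 and 9.68 log2 in shGA cells, 9.47 and 9.82 in pLVX_EV cells, 9.30 and 9.37 in pLVX_GABPa cells, and 8.92 and 9.06 in NT cells. For ORM2 they read 9.31 and 9.48 in shGA, 9.22 and 9.30 in pLVX_EV, 8.93 and 9.03 in pLVX_GABPa, and 8.83 and 8.86 in NT. The vectors thus stood in the same order for both probes, which read the same samples and may share signal. The shGA and pLVX_EV pairs overlapped for ORM1 and nearly touched for ORM2, while the other neighbours in the order did not overlap. Between pairs of 2 samples this was common: 17.5% of all genes were lower without overlap in pLVX_GABPa than in pLVX_EV. The share for pLVX_GABPa against NT was not computed.

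Knockdown cells exceeded NT cells in this arm by 0.68 ± 0.17 log2 for ORM1 and 0.55 ± 0.16 for ORM2 (SE, n = 2 and 2), and 19.4% of all genes were higher without overlap in that contrast. Empty-vector cells exceeded NT cells by 0.66 ± 0.17 and 0.42 ± 0.16, with 24.1% of all genes higher without overlap. Both contrasts were drawn against the same NT samples. The difference between control vectors was therefore about as large as that between hairpins for ORM1. Cells labelled GABPA overexpression differed from empty-vector cells by -0.31 ± 0.17 for ORM1 and -0.28 ± 0.16 for ORM2, with 17.5% of all genes lower without overlap. Without 1 of the pLVX_EV or pLVX_GABPa samples of this arm, the ORM1 value ran from -0.49 to -0.13.

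In the LNCaP vehicle arm the vectors could not be ordered. The ORM1 pairs read 6.98 and 7.25 log2 in NT, 7.08 and 7.45 in shGA, 7.05 and 7.29 in pLVX_EV, and 6.72 and 7.39 in pLVX_GABPa. The ORM2 pairs read 7.07 and 7.56 in NT, 7.20 and 7.33 in shGA, 6.97 and 7.42 in pLVX_EV, and 7.36 and 7.52 in pLVX_GABPa. For both probes the shGA pair overlapped the NT pair and the pLVX_GABPa pair the pLVX_EV pair, and all values were below background.

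The response to R1881 was present in every LNCaP vector. It was 1.87 log2 in NT, 2.40 in shGA, 2.47 in pLVX_EV and 2.28 in pLVX_GABPa cells for ORM1 (SE 0.17 each), and 1.53, 2.12, 2.07 and 1.54 for ORM2 in the same order (SE 0.16 each). In all 4 vectors both R1881 samples were above both vehicle samples for either gene, a pattern shared by 2.46% of all genes. Reading the vehicle at background, the smallest of these changes was at least 2.27-fold for ORM1 and at least 2.06-fold for ORM2, both in NT cells. The c42b responses were 0.44, 0.29, 0.21 and 0.25 log2 for ORM1 and 0.27, 0.31, 0.25 and 0.43 for ORM2, again for NT, shGA, pLVX_EV and pLVX_GABPa. The largest c42b response of either gene was smaller than the smallest LNCaP one.

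**Figure D3:**
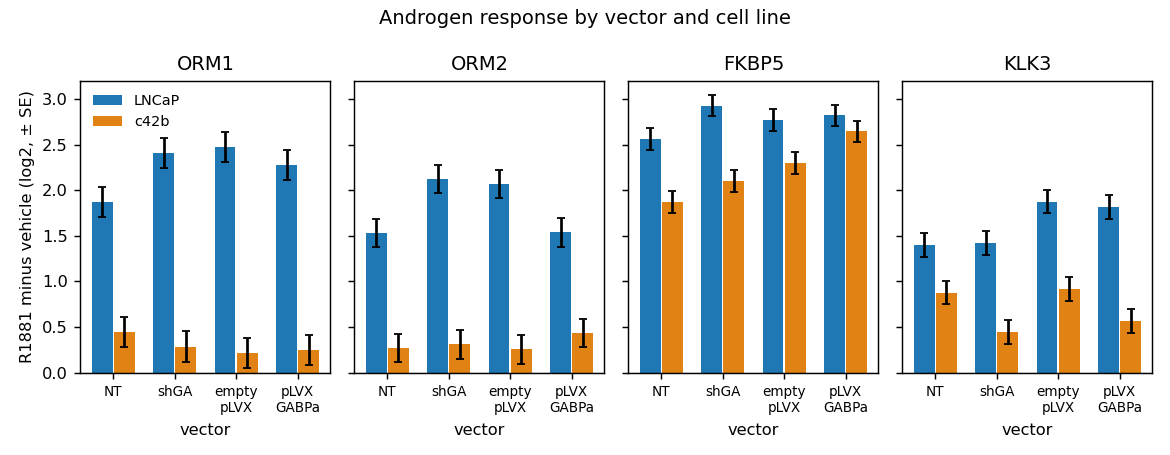
R1881 minus vehicle on the log2 scale (bars, with the standard error of the model, 2 samples per group) for ORM1, ORM2, FKBP5 and KLK3 by vector, in LNCaP (blue) and c42b (orange). The ORM bars of c42b reach at most 0.44 log2, against 1.53 to 2.47 in LNCaP, while FKBP5 rises in both lines.

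The 2 probes were compared with each other sample by sample, as a difference on the log2 scale of 2 probes whose own affinities are not known. In the 8 LNCaP samples with R1881, ORM1 minus ORM2 was 0.29 ± 0.15 (SD, n = 8, range 0.08 to 0.52) and ORM1 was the higher in 8 of 8. With vehicle it was -0.15 ± 0.41 (4 of 8 higher), and in c42b it was -0.10 ± 0.22 with R1881 and -0.08 ± 0.16 with vehicle. A repeat array differed from the first by -0.17 to 0.13 log2 over both probes in 2 LNCaP samples with R1881, and by -0.37 to 0.26 in 2 c42b samples with R1881. ORM1 and ORM2 transcripts are nearly identical and the probe sequences were not used here, so signal from 1 transcript on the probe of the other cannot be told apart from expression of both.

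Orosomucoid was then set beside other proteins of the acute phase, the plasma proteins whose synthesis shifts in inflammation. Of 28 measured acute-phase genes other than ORM1 and ORM2, 5 had a mean above background, and 0 rose with R1881 in LNCaP control cells (2 called lower at an adjusted p under 0.05, 2 at an unadjusted p under 0.05), where 1.65% of all genes were called higher. The list's median difference was 0.01 log2, and that of all genes -0.01. In c42b 0 of 28 were called in either direction (3 at an unadjusted p under 0.05), where 0.943% of all genes were called higher and 0.609% lower, with a median of 0.02 and of -0.004 over all genes. Counts of 0 among 28 genes, of which only 5 were above background, lie near these shares.

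The genes called lower in LNCaP were IL1RN, the antagonist of the interleukin-1 receptor (-0.69 ± 0.09 log2, adjusted p = 1.22e-05), and the metallothionein MT2A (-0.36 ± 0.09, adjusted p = 0.0496), against 1.32% of all genes called lower. The MT2A call was lost without 24 of the 32 samples in turn, with adjusted p up to 0.228 (without LNCaP vehicle pLVX_EV replicate 1), and under 4 of the other settings tried. The classical liver members stayed below background over all samples on average. SAA1, serum amyloid A, ran from 6.71 to 7.11 log2 in LNCaP with R1881 and from 6.60 to 7.05 with vehicle. HP, haptoglobin, ran from 7.38 to 7.74 and from 7.24 to 7.77, SERPINA1, alpha-1-antitrypsin, from 7.47 to 7.62 and from 7.33 to 7.79, and complement C3 from 7.21 to 7.65 and from 7.23 to 7.69. In each of these genes the arms overlapped, unlike ORM1 and ORM2 in the same samples.

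SERPINA3, alpha-1-antichymotrypsin, and LCN2, a lipocalin that binds bacterial siderophores, were above background but did not pass the test with R1881. SERPINA3 differed by -0.06 log2 in LNCaP and by 0.04 in c42b (adjusted p = 0.921 and 0.96), and LCN2 by 0.07 and 0.26 (adjusted p = 0.925 and 0.306). Both genes differed instead between vectors in c42b. There, empty-vector cells exceeded NT cells by 1.61 ± 0.09 log2 for LCN2 and by 1.23 ± 0.08 for SERPINA3 (adjusted p = 4.21e-14 and 1.17e-12), and 9.58% of all genes were called higher there and 8.43% lower. In the same contrast ORM1 differed by -0.17 ± 0.12 log2 and ORM2 by 0.05 ± 0.11, both with overlapping groups that pooled the arms. In these c42b cells 1 of 4 R1881 readings and 0 of 4 vehicle readings of each probe were above background.

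Of the 9 negative acute-phase plasma proteins, which fall in inflammation (ALB, TF, TTR and APOA1 above background), 0 were called with R1881 in either line (1 and 0 at an unadjusted p under 0.05 in LNCaP and c42b). Of all genes, 1.65% were called higher and 1.32% lower in LNCaP, and 0.943% and 0.609% in c42b, so counts of 0 among so few genes lie near the background. Their median difference was -0.01 in LNCaP and -0.02 in c42b. Of 17 measured lipocalin family genes, 3 were above background (LCN2, LCN12 and APOD), and 0 were called with R1881 in LNCaP or c42b (0 and 2 at an unadjusted p under 0.05), also near those shares. The lipocalin medians were -0.001 and -0.01. Apolipoprotein D, a lipocalin of sterol and arachidonic acid transport, differed by 0.25 log2 in LNCaP and 0.24 in c42b (adjusted p = 0.591 and 0.618), and AMBP, the precursor of the lipocalin alpha-1-microglobulin and a neighbour of the ORM genes, by 0.02 and -0.11 (adjusted p = 0.984 and 0.879).

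Of 20 measured genes of factors that regulate ORM genes in hepatocytes or that belong to the cytokine and steroid pathways acting on them, 2 rose and 2 fell with R1881 in LNCaP control cells, where 1.65% of all genes were called higher and 1.32% lower. The median difference was -0.04 log2, against -0.01 for all genes. CEBPD, a C/EBP factor induced in the acute phase, rose by 1.06 ± 0.08 log2 (adjusted p = 3.35e-10). Over all vectors it ran from 9.61 to 10.1 log2 with R1881 and from 8.47 to 9.23 with vehicle, with no overlap (1.17% of all genes). NFKB1, a subunit of NF-kappa B, fell by 0.68 ± 0.08 (adjusted p = 6.39e-07).

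The remaining 2 calls were weak. LIFR, a receptor chain for leukaemia inhibitory factor, was called higher by 0.43 ± 0.11 log2 (adjusted p = 0.048), and IL1B, interleukin-1 beta, whose probe averaged 6.92 log2, below background, was called lower (-0.37 ± 0.09, adjusted p = 0.0387). The LIFR call was lost without 24 of the 32 samples in turn and the IL1B call without 9, each with its highest adjusted p (0.355 and 0.217) without LNCaP R1881 pLVX_EV replicate 1. LIFR also lost its call under normexp background correction (adjusted p = 0.0759) and IL1B under median centring (adjusted p = 0.112).

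In c42b, 1 of the 20 rose and 1 fell, with a list median of 0.03, where 0.943% of all genes were called higher and 0.609% lower. CEBPD rose there by 0.86 ± 0.08 log2 (adjusted p = 3.09e-08), from 8.80 to 9.45 with vehicle to 9.63 to 10.2 with R1881 over the vectors. CEBPA, a C/EBP factor of differentiated liver and fat cells, fell by 0.43 ± 0.08 (adjusted p = 0.00252). CEBPD rose in both lines, and its level with R1881 in c42b covered about the same range as in LNCaP. ORM1 and ORM2 were bright in LNCaP alone. These are RNA levels, and whether CEBPD acts on ORM1 or ORM2 in these cells was not tested. For the response difference between lines 0 of the 20 genes were called (4 at an unadjusted p under 0.05), against 0.334% of all genes. A count of 0 among 20 is near that share.

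Other regulators gave no call with R1881. CEBPB, the C/EBP factor first known as nuclear factor of interleukin-6, differed by -0.05 log2 in LNCaP and 0.17 in c42b (adjusted p = 0.938 and 0.595). STAT3, which carries the interleukin-6 signal, differed by -0.02 and 0.03 (adjusted p = 0.984 and 0.967), and IL6ST, the shared receptor chain of that family, by -0.20 and -0.22 (adjusted p = 0.439 and 0.362). IL6R, near background, differed by 0.08 and 0.03 (adjusted p = 0.94 and 0.985), SOCS3, the feedback inhibitor of the pathway, by 0.13 and -0.04 (adjusted p = 0.803 and 0.967). NR3C1, the glucocorticoid receptor, had a mean below background and ran from 6.92 to 7.63 log2 in LNCaP with R1881 and from 6.80 to 7.43 with vehicle.

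**Figure D4:**
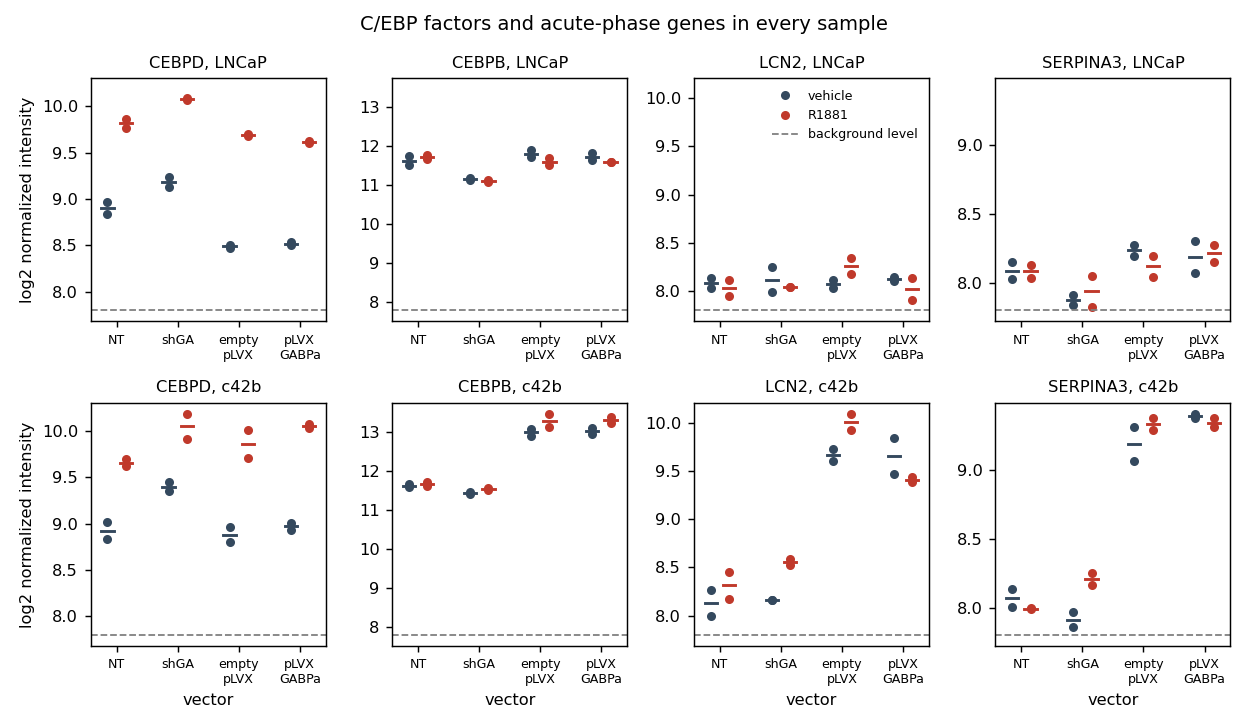
Log2 normalized intensity (y axis) of CEBPD, CEBPB, LCN2 and SERPINA3 in every sample by vector (x axis), in LNCaP (top) and c42b (bottom), with R1881 samples in red, vehicle samples in dark grey, group means as bars and background dashed. CEBPD is higher with R1881 in both lines, whereas CEBPB, LCN2 and SERPINA3 are higher in both pLVX vectors of c42b.

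Several of these factors moved with the vector or the line. CEBPB was higher in c42b empty-vector cells than in NT cells by 1.49 ± 0.09 log2 (adjusted p = 3.92e-14), and CEBPG, a C/EBP factor that lacks an activation domain, by 1.03 ± 0.08 (adjusted p = 5.34e-11). The 4 samples of each c42b vector over both arms spanned 12.9 to 13.5 log2 for CEBPB in pLVX_EV and 11.6 to 11.7 in NT. In total 5 of 20 regulators were called higher and 0 lower in that contrast, against 9.58% and 8.43% of all genes. In LNCaP the same contrast called 5 higher and 1 lower (6.17% and 5.76% of all genes). IL1B was among them (0.54 ± 0.09, adjusted p = 7.01e-05), with no LNCaP reading above 7.68 log2 and so none above background. Averaged over both arms, the LNCaP difference between these vectors was 0.36 ± 0.12 for ORM1 and 0.15 ± 0.11 for ORM2. These groups overlapped, which was fixed in advance because each pooled 2 arms that lay apart. In the R1881 arm alone the pairs did not overlap for either gene, with 24.1% of all genes higher without overlap.

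In knockdown cells CEBPB fell by 0.54 ± 0.09 log2 in LNCaP (adjusted p = 0.000256), and CEBPD rose in c42b by 0.43 ± 0.08 (adjusted p = 0.00249). In LNCaP, 1 of the 20 regulators was called higher and 1 lower, with 1.27% and 1.2% of all genes. The higher one was STAT3 (0.36 ± 0.09, adjusted p = 0.0297), a call lost without any 1 of 4 samples, with adjusted p up to 0.199, and lost under median centring (adjusted p = 0.172). In c42b, CEBPD was the 1 regulator called (3.25% of all genes were called in either direction). Averaged over the arms, knockdown minus NT was 0.41 ± 0.12 log2 in LNCaP and -0.09 ± 0.12 in c42b for ORM1. For ORM2 it was 0.25 ± 0.11 and -0.01 ± 0.11. All these groups overlapped, but each pooled both arms, which lay apart in LNCaP, so overlap there was fixed in advance. In the R1881 arm alone the LNCaP pairs did not overlap for either gene, with 19.4% of all genes higher without overlap. For labelled overexpression 0 of the 20 regulators were called in either line (0 and 0 at an unadjusted p under 0.05), with 0.0449% and 0.15% of all genes called.

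Between control cells of the lines, pooled over NT and pLVX_EV and over the arms, c42b had more CEBPB (0.69 ± 0.06 log2, adjusted p = 1.35e-10), STAT3 (0.54 ± 0.06, adjusted p = 2.72e-08), LCN2 (0.92 ± 0.07, adjusted p = 1.6e-12) and SERPINA3 (0.51 ± 0.06, adjusted p = 2.83e-08), and less IL1RN (-1.14 ± 0.06, adjusted p = 4.44e-15). By vector, the c42b and LNCaP means in NT cells were 11.64 and 11.68 log2 for CEBPB, 8.22 and 8.06 for LCN2, and 8.03 and 8.09 for SERPINA3 (n = 4 each). In pLVX_EV cells they were 13.13 and 11.71, 9.84 and 8.17, and 9.26 and 8.18, so the pooled differences of these 3 genes lay mostly in the pLVX_EV cells. The ranges of STAT3 and of IL1RN did not overlap between the lines in either vector, with NT means of 9.78 and 9.25 for STAT3 and 7.86 and 8.81 for IL1RN. The share of all genes without overlap was not computed for these contrasts. Over all c42b vectors, IL1RN was above background in 1 of 8 R1881 and 3 of 8 vehicle samples, so its c42b level is an upper bound. Of the regulators 4 were called higher and 5 lower, and of the 28 acute-phase genes 3 higher and 1 lower, where 14.9% and 13.7% of all genes were called higher and lower. For ORM1 and ORM2 this average difference, c42b minus LNCaP, was -0.77 ± 0.08 and -0.62 ± 0.08. Their ranges in the lines were apart in the R1881 arm and overlapped in the vehicle arm.

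The genes around ORM1 and ORM2 on chromosome 9 were read in the same comparison. Of 13 measured neighbours, from RGS3 (its start at -878 kb from that of ORM1) to TNFSF8 (at 570 kb), 0 were called with R1881 in LNCaP or c42b control cells (2 and 1 at an unadjusted p under 0.05). With 1.65% and 1.32% of all genes called higher and lower in LNCaP and 0.943% and 0.609% in c42b, a count of 0 among 13 is near the background. The medians were 0.03 and 0.01 log2, and 4 of the 13 had a mean above background. AKNA, an AT-hook transcription factor gene whose annotated span overlaps ORM2, differed by 0.01 ± 0.08 in LNCaP and 0.15 ± 0.08 in c42b (adjusted p = 0.994 and 0.647). ATP6V1G1, a subunit of the vacuolar proton pump and the brightest neighbour at a mean of 12.1 log2, differed by 0.05 and 0.01 (adjusted p = 0.939 and 0.988). TMEM268, a transmembrane protein gene above background, had the highest values, 0.19 ± 0.08 in LNCaP and 0.28 ± 0.08 in c42b (adjusted p = 0.468 and 0.126). The most negative value was that of TNFSF15, a ligand of the tumour necrosis factor family near background (-0.33 ± 0.15 in LNCaP, adjusted p = 0.476).

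**Figure D5:**
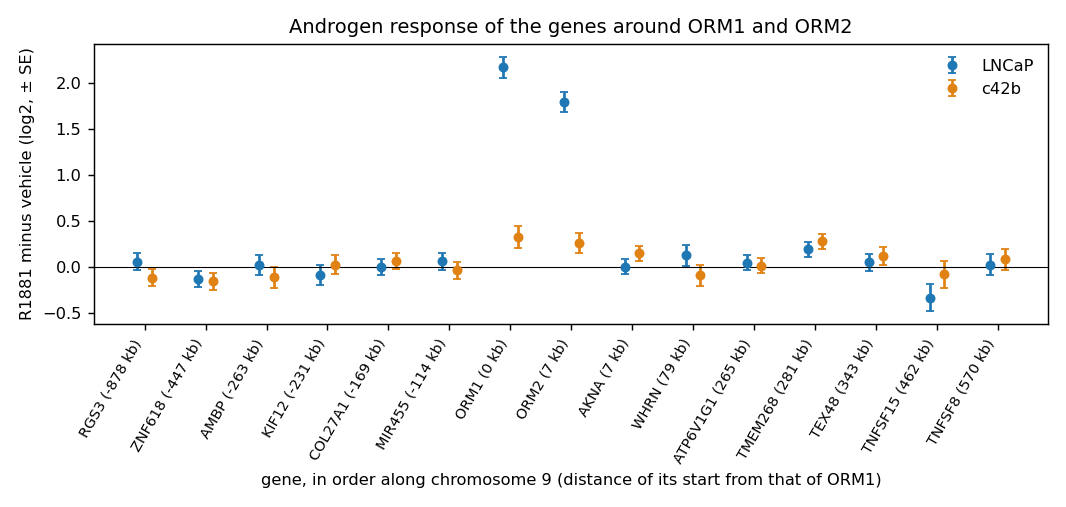
R1881 minus vehicle in control cells on the log2 scale (points, with standard errors, y axis) for ORM1, ORM2 and 13 neighbouring genes in chromosomal order (x axis, with the distance of each start from that of ORM1), in LNCaP (blue) and c42b (orange). The ORM genes stand at 2.17 and 1.80 in LNCaP, and the neighbours between -0.33 and 0.28 in both lines.

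Genes above background whose 16 group means followed those of ORM1 most closely were ranked by Pearson's r, as a description over groups that share line and arm. ORM2 came first (r = 0.99). The next 8 were CYP2U1 (0.96), a fatty acid hydroxylase of the cytochrome P450 family, VCL (0.93), which encodes the adhesion protein vinculin, MALT1 (0.93), SIM2 (0.93), PTGER4 (0.92), a prostaglandin E2 receptor, CYTH1 (0.92), THYN1 (0.92) and NCAPD3 (0.91), a condensin II subunit. With each line's mean subtracted, the 8 were CYP2U1 (0.96), FOXD4 (0.94), ZNF615 (0.93), NCAPD3 (0.92), VCL (0.91), SLC22A23 (0.91), MALT1 (0.91) and SLC41A1 (0.91). With Spearman's rank correlation 0 of the first 8 stayed among the 8 highest, and 4 did with 32 samples in place of group means, so that the order of likeness depended on the measure.

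The correlation did not reflect equal responses. The LNCaP response was 0.65 log2 for CYP2U1, 0.55 for VCL, 0.96 for MALT1 and 1.76 for NCAPD3, and that of c42b 0.20, 0.16, 0.39 and 0.75. PTGER4 (0.52 and 0.35), CYTH1 (0.64 and 0.40) and SLC41A1 (1.41 and 0.89) had c42b responses nearer to their LNCaP ones than ORM1 (2.17 and 0.33). NCAPD3 ran from 9.27 to 10.0 log2 in LNCaP with R1881 and from 7.43 to 8.05 with vehicle, and in c42b from 8.38 to 8.85 and from 7.35 to 8.29. Its c42b arms did not overlap, unlike those of ORM1. The share of all genes without overlap is not given for that contrast, and only 4 of the 8 c42b vehicle readings of NCAPD3 were above background.

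Markers of the cells known to make orosomucoid were read in the same samples. Of 8 hepatocyte markers, 4 had a mean above background (ALB, APOA1, TTR and CYP2E1), and APOB, FGB, AHSG and CYP3A4 did not. Their summed linear intensity ran from 1631 to 1903 in LNCaP with R1881 and from 1635 to 2062 with vehicle, and these ranges overlapped. In c42b the sums were 1903 to 2210 with R1881 and 1951 to 2194 with vehicle. The background level is 223 on the linear scale for each probe, so such a sum is largely background and could hide a change. Of 7 measured leukocyte markers, CD14 was above background and PTPRC, LYZ, MPO, S100A8, S100A9 and CD3E were not, with sums of 1232 to 1387 and 1216 to 1357. Of 2 measured basal epithelial markers 0 were above background, and of 5 stromal markers 3 (ACTA2, COL1A1 and VIM). The stromal sums ran from 1628 to 1826 in LNCaP with R1881 and from 1702 to 2075 with vehicle.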

How the data were processed

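Orosomucoid levels were taken from Illumina Human HT-12 arrays of 32 samples in 16 groups of 2. The authors deposited linear intensity values per probe, made with the BASH and HULK steps of beadarray (versions not given in the sources used here), and a second table of quantile-normalized log2 values. Total RNA had been labelled with the Illumina TotalPrep kit. No detection p-values and no chip or scan batches were used here, and 94 intensities were missing. For the present values the log2 of each intensity was quantile normalized across all 36 arrays, and 4 repeat arrays were averaged with the first. They differed from the deposited log2 table by at most 0.15. Array medians ran from 178.3 to 225, and the number of arrays limits the precision.

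Probe names came from GEO's platform annotation, in which 30113 of 47231 probes named 1 gene, 8 several and 17110 none. A gene with several probes was represented by the brightest. Group means were estimated with limma 3.58.1 in R 4.3.3, and SE is the moderated standard error. Benjamini-Hochberg adjustment of the moderated p-values covered all probes. It was joint over 6 main comparisons (R1881, knockdown and labelled overexpression in each line), joint over both comparisons of empty vector with NT, and separate for the difference between lines in control cells and for the response difference between lines. The last was added after seeing the data. A call required an adjusted p under 0.05. The study's methods describe the array RNA as coming from biological triplicates, and 2 samples per group were analysed here. The labels do not say which samples are separate cultures, so a p-value reflects the spread of these samples alone. The fit was tested on simulated data for the R1881 comparison in LNCaP control cells. There it called 7% of changes of 0.25 log2, 78% of 0.5 and 100% of 1, so a change of 0.25 log2 would mostly be missed.

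The members and the 6 gene lists were chosen with earlier results of these data known. Some list genes are not reported here. All ORM probes were named, as were up to 4 called members per list and comparison, a fixed set of regulators and acute-phase genes, and the 8 genes most like ORM1 by each of 2 measures. SGK1, RHOU and the TRIM genes were named for their rank, after their values were seen. "At least" folds read a group below background at the background level. Alternatives were median centring, normexp with an offset of 50, the deposited log2 table, repeat arrays left out, the replicate number as a block, brighter probes, adjustment within each comparison, a threshold of 0.1, any probe of a gene, and leaving out each sample. Promoter bases are from RefSeq on GRCh38.p14.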

Additional observations from a re-analysis of the deposited data

Results flagged for a closer look

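A difference between the lines in the response to R1881, c42b minus LNCaP control cells, passed the test for 5 genes of the androgen-response list. It was -1.11 log2 for TMPRSS2 (limma adjusted p = 1.12e-05), -1.11 for PMEPA1 (adjusted p = 5.73e-05), -0.74 for KLK3 (adjusted p = 0.00338), -0.72 for KLK2 (adjusted p = 0.00415) and -0.58 for FKBP5 (adjusted p = 0.0185). Each of these genes still rose in c42b. No ORM1 or ORM2 reading stood apart from the other samples of its line and arm.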

How the results depend on the processing

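Under median centring, normexp, the deposited log2 table, repeat arrays left out and the replicate block, all 16 ORM1 and ORM2 differences kept their direction, and 5 of 16 moved by more than a replicate SD, all under normexp. There the LNCaP response was 2.48 log2 for ORM1 and 2.07 for ORM2, and the response difference between lines -2.08 and -1.75. On the linear scale, the R1881 and vehicle means of control cells differed by 516 intensity units in LNCaP and 41.5 in c42b for ORM1, and by 382 and 33.6 for ORM2. Of these means only those of LNCaP with R1881 were above background, by 434 and 314. Reading every ORM probe on its own changes nothing, since each gene has 1.

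With each sample left out in turn, the ORM1 response ran from 2.08 to 2.26 log2 in LNCaP and from 0.26 to 0.39 in c42b, and its difference between lines from -1.93 to -1.75. The ORM2 values ran from 1.68 to 1.92, from 0.20 to 0.32, and from -1.66 to -1.42.

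Of the 10 counts of called list members, that of knockdown in LNCaP went from 6 to 3 under median centring and ran from 3 to 6 with samples left out. That of labelled overexpression in c42b went from 5 to 3 with adjustment within each comparison, and that of labelled overexpression in LNCaP from 0 to 1 at an adjusted p under 0.1 and from 0 to 1 with samples left out.

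Deviations of same-numbered replicates from their group means had correlations of -0.24 to 0.23 over 120 pairs of groups. The median was -0.01, and 19 pairs were over 0.1. These values showed no general pairing by number, and pairing within a line, vector or arm was not tested. With the replicate number as a block, the ORM1 response in LNCaP was 2.17 log2, the number of genes called with R1881 went from 596 to 592 in LNCaP and from 311 to 308 in c42b, and MT2A lost its call (adjusted p = 0.05). Probes near background limit what could be read of ORM1 and ORM2 in c42b and in vehicle cells.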
